A study of Mus musculus with 6 samples.

Results

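Class I antigen presentation was described here through 10 genes: the class I heavy chains H2-K1 and H2-D1, their light chain B2m, the peptide transporter subunits Tap1 and Tap2, the loading factor Tapbp (tapasin), the immunoproteasome subunits Psmb8, Psmb9 and Psmb10, and Nlrc5, a regulator of class I genes. They were chosen by name, and all 10 had a probe set annotated to that gene alone, out of 18193 genes so named on the array. Where a gene had several probe sets, the one brightest on average over the arrays stood for it, and 8 members passed the filter on low signal, which kept probe sets whose mean over all arrays was above 85.46. Psmb8 and Nlrc5 did not pass it. The mean of the 5 AQP2-expressing lines was above that limit for all 8, so none of them had entered through clone 2 alone.

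The lines were mpkCCD cells, a mouse cell line of the renal cortical collecting duct, whose principal cells carry the vasopressin-regulated water channel aquaporin 2 (AQP2). Clone 2, labelled as without AQP2 expression, was set against clones 3, 9, 10 and 11 and the original cells, which are all labelled as AQP2-expressing. All 6 lines, clone 2 included, had been exposed for 5 days to 0.1 nM of dDAVP, an analog of vasopressin, and each was measured on 1 Affymetrix array, so a line and its array or culture cannot be told apart, and clone 2 has no replicate. A single line stands for the absence of AQP2, which therefore cannot be separated from any other trait of clone 2. In bulk RNA, fewer cells with a transcript and less of it per cell cannot be told apart.

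Class I molecules display peptides from proteins made inside the cell to cytotoxic T cells. The proteasome cuts the proteins, TAP carries the peptides into the endoplasmic reticulum, and tapasin helps load them onto a heavy chain paired with beta-2-microglobulin. Interferons raise many of these genes through STAT and IRF factors and NLRC5, and exchange the standard catalytic subunits of the proteasome for the inducible ones. Kidney tubule epithelium carries class I molecules and raises them in inflammation. In the mouse, most of the genes lie in the H2 complex on chromosome 17, here 7 of the 10, while B2m lies on chromosome 2 and Psmb10 and Nlrc5 on chromosome 8.

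The arrays were alike in overall level. Median signal was 79.9 in clone 2 and 84.7 to 88.8 in the expressing lines, and the beta-actin 3′ probe set, over the 5′ one, gave 1.72 in clone 2 and 1.58 to 1.76 in the others. Of 20 collecting duct markers on the array 14 passed the filter. Past a limma adjusted p of 0.05, 3 of them fell and 0 rose in clone 2, where 1.67% and 0.817% of all probe sets did. The log2 difference was negative for 12 and positive for 2, Avpr2 (0.12) and Aqp3 (0.64). Aqp3 had 191.9 in clone 2, against 96.4 to 150.0 in the expressing lines. Aqp2 had a signal of 159.3 in clone 2, against 1066.4 to 6577.7 in the expressing lines (limma adjusted p = 0.0388), and Gata3 (0.0146) and Fxyd4 (0.00977) also fell in clone 2. The Aqp2 call was lost in the robust fit (0.157), without the mean-variance trend (0.0857), with all probe sets kept (0.0814) and without clone 11 (0.0535) or the original cells (0.0869), and that of Gata3 without the trend (0.0576). Of 19 leukocyte, endothelial and fibroblast markers 2 passed the filter, Csf1r and Cd68, both macrophage markers. Cd68 had 619.3 in clone 2, against 121.6 to 323.1 in the expressing lines (log2 difference 1.30, limma adjusted p = 0.156), and Csf1r had 1838.1 in clone 2, against 1640.8 to 2564.2 (-0.13, adjusted p = 0.835). The summed signal of all 19, most of them below the filter, was 2982 in clone 2 and 2241 to 3475 in the expressing lines, and the pan-leukocyte marker Ptprc had 48.7 in clone 2 and 3.3 to 68.0 in the expressing lines, below the filter in each. The part of such cells in the values below was not tested.

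Interferon acts on these genes through short sites near their starts, so the start regions of the members on which the results turn are shown with the motifs found in them. They are the 250 bases that the reference table gives before a start of H2-K1, H2-D1 and B2m and the stretch of 225 bases between the starts of Psmb9 and Tap1, which are read in opposite directions, all from RefSeq, build GRCm38.p6. Each is written 5′ to 3′ on the strand of the gene, the last on the plus strand of Tap1. Capitals mark matches, on either strand, to the core of the interferon-stimulated response element (GAAA and GAAA parted by any 2 bases), a form of it with 1 A fewer, added after the first search (GAANNGAAA), the palindrome bound by STAT factors (TTCNNNGAA), a form of the NF-kappaB site (GGGA and CC parted by any 4 bases) and CCAAT. Overlapping matches run together in the capitals.
H2-K1, chr17:34000348-34000597, minus strand: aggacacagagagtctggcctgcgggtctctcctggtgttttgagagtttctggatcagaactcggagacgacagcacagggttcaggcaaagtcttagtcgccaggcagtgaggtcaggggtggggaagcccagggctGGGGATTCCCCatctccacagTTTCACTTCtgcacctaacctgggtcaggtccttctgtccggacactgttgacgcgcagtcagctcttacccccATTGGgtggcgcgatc
H2-D1, chr17:35262844-35263093, plus strand: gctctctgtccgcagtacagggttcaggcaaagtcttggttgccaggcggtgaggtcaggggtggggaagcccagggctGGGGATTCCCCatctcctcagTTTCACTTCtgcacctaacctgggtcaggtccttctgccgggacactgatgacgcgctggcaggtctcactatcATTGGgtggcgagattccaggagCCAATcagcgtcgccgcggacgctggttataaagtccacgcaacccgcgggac
B2m, chr2:122147437-122147686, plus strand: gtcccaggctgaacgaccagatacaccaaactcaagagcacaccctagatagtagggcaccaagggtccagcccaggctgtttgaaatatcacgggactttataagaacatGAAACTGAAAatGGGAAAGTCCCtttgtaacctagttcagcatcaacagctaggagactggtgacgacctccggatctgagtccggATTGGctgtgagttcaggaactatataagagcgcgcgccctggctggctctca
Psmb9 and Tap1, chr17:34187331-34187555, plus strand: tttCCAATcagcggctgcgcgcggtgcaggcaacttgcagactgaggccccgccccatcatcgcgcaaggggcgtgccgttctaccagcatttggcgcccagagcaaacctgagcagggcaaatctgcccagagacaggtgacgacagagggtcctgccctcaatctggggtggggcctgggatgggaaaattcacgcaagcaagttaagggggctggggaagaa
H2-K1 and H2-D1 held the same NF-kappaB stretch, on both strands with the matches overlapping, and, shortly after it, the same TTTCACTTC, a match to the shorter response element on the opposite strand, and their longest identical run was 47 bases. The H2-K1 window lies inside the span given for the gene below, since the start behind it is not the outermost one, while the H2-D1 and B2m windows end just before the gene's span. For H2-K1 the table gives a pair of overlapping windows, of which the one starting further upstream on that strand is shown. B2m held GAAACTGAAA followed by an NF-kappaB stretch of the same overlapping kind. The stretch between Psmb9 and Tap1 held a CCAAT match and none of the other forms. Of the 8 members with a window in the table, 1 held the core element, 2 the shorter one, 1 the STAT form (Psmb8), 3 the NF-kappaB form and 6 a CCAAT match. Among all 32851 windows of this length the shares were 3.0%, 6.3%, 7.0%, 17.6% and 33.8%. A match is a description of the letters and not a site shown to act in these cells.

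Setting clone 2 against the lines with AQP2 asks whether class I presentation was higher in the clone whose interferon genes were higher, although the chromosome 17 genes around most members were lower there. The 8 members past the filter all had higher values in clone 2 than the mean of the expressing lines, by 0.18 to 1.02 on the log2 scale, where 51.5% of all genes did, and 0 of 8 passed the test (limma, Benjamini-Hochberg adjusted over 22518 probe sets). Of all probe sets tested 0.817% were called higher and 1.67% lower, 2.49% in all. At an unadjusted p under 0.05 there were 4 of 8 members (B2m, Tap1, Psmb10 and H2-D1), where 10.2% of all genes past the filter were higher in clone 2 at that level. Clone 2 lay above every expressing line for 6 of these 8, against 29.0% of all genes past the filter. An exact permutation test of clone 2 as 1 array among 6 cannot give a one-sided p below 0.167.

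**Figure D1:**
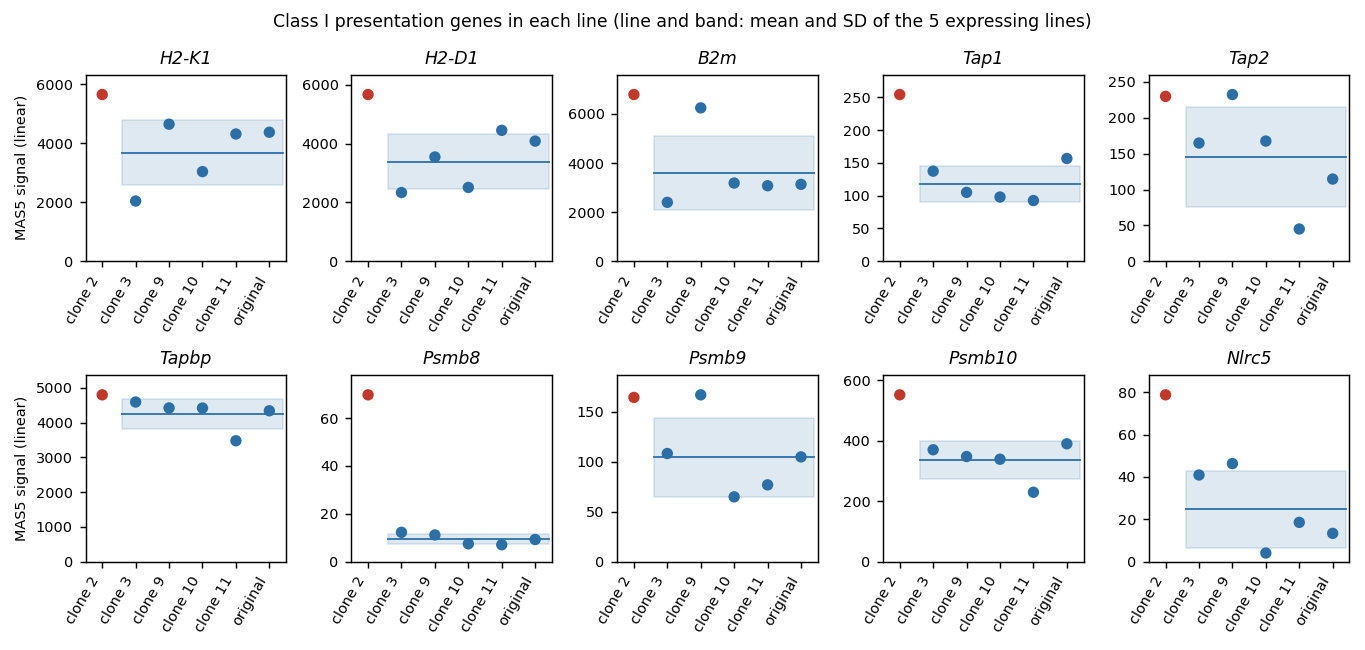
MAS5 signal on a linear axis from 0 for each of the 10 genes (panels) in clone 2 (red) and the 5 AQP2-expressing lines (blue), 1 array per point. The blue line and band are the mean and SD of the 5 expressing lines. Clone 2 is the highest point in 8 panels, and in Tap2 and Psmb9 clone 9 is level with it.

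H2-K1 and H2-D1 encode the classical class I heavy chains that hold the peptide. H2-K1 (chr17:33996012-34000619) had a signal of 5654.2 in clone 2, against 2041.0 in clone 3, 4648.5 in clone 9, 3039.9 in clone 10, 4315.7 in clone 11 and 4374.9 in the original cells. Clone 2 was highest, and clone 3 lay far below the other expressing lines except clone 10. The expressing lines averaged 3684 ± 1110 (SD, n = 5), and the log2 difference was 0.68 (SE 0.381, 95% interval -0.18 to 1.54, limma adjusted p = 0.356). H2-D1 (chr17:35263094-35267497) had 5665.6 in clone 2, against 2334.1 in clone 3, 3543.0 in clone 9, 2507.3 in clone 10, 4448.4 in clone 11 and 4082.5 in the original cells. Clone 2 was again highest and clones 3 and 10 lowest, and its log2 difference was 0.79 (SE 0.324, 95% interval 0.06 to 1.52, limma adjusted p = 0.219).

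The heavy chain genes have close relatives in the H2 complex, and the names of nearly all their probe sets end in x_at, the mark of probes that can bind related transcripts, so the split between H2-K1, H2-D1 and other class I genes is uncertain. Their probe sets did not agree on the call. A second H2-K1 probe set (1427746_x_at) had a signal of 3680.1 in clone 2, against 1105.0 to 1673.0 in the expressing lines, with no overlap, and its log2 difference of 1.43 (SE 0.246) passed the test (limma adjusted p = 0.0267). That call was lost without clone 11 (adjusted p = 0.0507), with no filter (0.0508) and without the mean-variance trend (0.0676). A second H2-D1 probe set (1451683_x_at) had 1062.1 in clone 2, against 385.1 to 499.3, again without overlap, and passed the test too (difference 1.22, SE 0.197, limma adjusted p = 0.0209), a call lost without the original cells (0.0521). In both of these the expressing lines lay closer together than in the brighter probe sets that represent the genes. A further H2-D1 probe set (1451784_x_at), with 5819.8 in clone 2 and 2182.0 to 4243.5 in the expressing lines, had a difference of 0.88 (limma adjusted p = 0.19) and passed only when centred by chromosome, as described below (1.29, adjusted p = 0.0392). The only heavy chain probe set past the filter without the x_at ending (1426324_at, H2-D1) had 266.0 in clone 2. The expressing lines overlapped it, at 135.1 to 287.2, and the difference was 0.37 (limma adjusted p = 0.653). In all, the members had 17 further probe sets, and 9 lay below the filter, with differences from -0.78 to 0.85 in the fit without it. The 8 that passed the filter were 4 for H2-D1, 2 for H2-K1 and 1 each for B2m and Tapbp. All 8 had a positive difference, where 51.5% of all genes past the filter did. Of the 8, 2 passed the test, where 0.817% of all probe sets were called higher. Clone 2 was the highest line in 6, where it was so in 24.3% of all probe sets past the filter. Probe sets of the same gene are not separate observations. The 2 that passed were singled out after their values were seen.

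**Figure D2:**
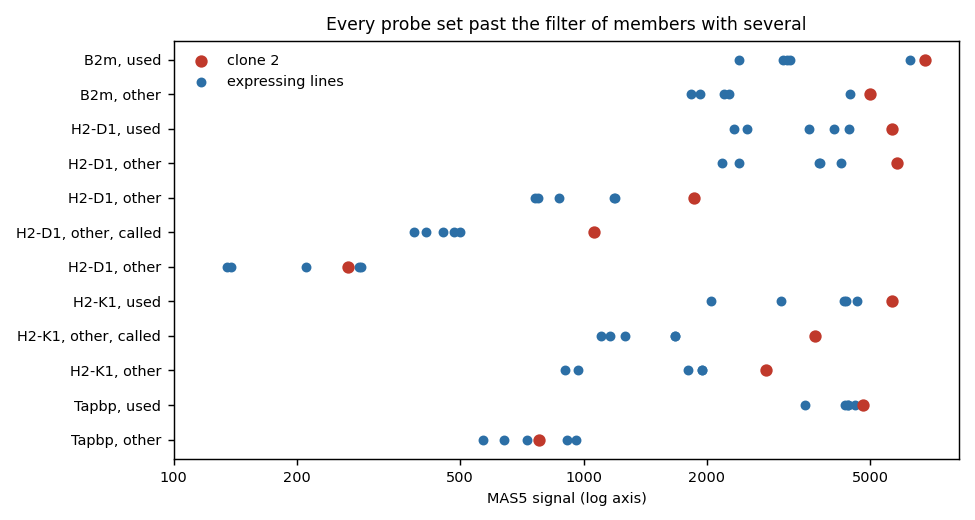
MAS5 signal on a log axis for every probe set past the filter of the members with more than 1 such probe set, with clone 2 in red and the 5 expressing lines in blue. Rows marked as used represent the gene, and rows marked as called passed the test. The 2 called rows, of H2-D1 and H2-K1, have expressing lines close together, while in the used rows these spread 1.91-fold and 2.28-fold.

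B2m, the light chain shared by all class I molecules (chr2:122147687-122153082), had a signal of 6791.5 in clone 2, against 2398.8 in clone 3, 6248.1 in clone 9, 3184.4 in clone 10, 3075.1 in clone 11 and 3132.3 in the original cells. Clone 9 was nearly as high as clone 2, and the remaining lines lay well below both. The log2 difference of clone 2 was 0.99 (SE 0.392, 95% interval 0.11 to 1.88, limma adjusted p = 0.203). Without clone 9 it was 1.21 and passed the test (adjusted p = 0.0111), in a comparison where 1.44% of probe sets were called higher and 2.74% lower, 4.19% in all. The second B2m probe set gave the same order of the top lines, with 5012.7 in clone 2, 4465.4 in clone 9 and 1825.6 to 2269.8 in the rest, a log2 difference of 1.06 (adjusted p = 0.183) and of 1.28 without clone 9 (adjusted p = 0.0069).

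Tap1 and Tap2 form the transporter that moves peptides into the endoplasmic reticulum, and tapasin bridges it to the heavy chain. Tap1 (chr17:34187556-34197225) had the largest difference of the 8 members, with 254.5 in clone 2, against 137.5 in clone 3, 105.1 in clone 9, 98.0 in clone 10, 92.6 in clone 11 and 156.8 in the original cells. The groups did not overlap, the ratio of clone 2 to the mean of the others was 2.16, and the log2 difference was 1.02 (SE 0.329, 95% interval 0.28 to 1.77, limma adjusted p = 0.134). Its other probe sets lay below the filter, at 1.4 to 29.1 over all lines. Their differences in the fit without a filter were 0.41, -0.78 and -0.11. Tap2 (chr17:34204479-34216321) had 229.9 in clone 2, against 164.8 in clone 3, 232.5 in clone 9, 167.6 in clone 10, 44.9 in clone 11 and 114.6 in the original cells. Here clone 9 matched clone 2 and clone 11 was lowest, and with a 5.18-fold spread among the expressing lines the difference was 0.74 (SE 0.604, 95% interval -0.63 to 2.11, limma adjusted p = 0.528).

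Tapbp (chr17:33919478-33929290) was bright and nearly level, with 4799.6 in clone 2, against 4592.6 in clone 3, 4421.4 in clone 9, 4419.3 in clone 10, 3477.6 in clone 11 and 4340.2 in the original cells. Only clone 11 stood below the rest, and the log2 difference of 0.18 had the narrowest interval of the members, -0.19 to 0.55 (SE 0.162, limma adjusted p = 0.568). The second Tapbp probe set gave 779.2 in clone 2 and 568.1 to 957.5 in the expressing lines (log2 difference 0.06, adjusted p = 0.927).

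Psmb8, Psmb9 and Psmb10 are the inducible catalytic subunits that replace Psmb5, Psmb6 and Psmb7 in the immunoproteasome. Psmb8 (chr17:34198195-34201454) had 69.7 in clone 2, against 12.2 in clone 3, 11.1 in clone 9, 7.4 in clone 10, 7.0 in clone 11 and 9.2 in the original cells. Clone 2 lay 7.44 times above the mean of the expressing lines, the largest ratio among the members. All of these signals lay below the filter and below the median signal of their arrays, where MAS5 values are noisy. In the fit without a filter the log2 difference was 1.65 (SE 0.326, limma adjusted p = 0.0783), in which 0.169% of probe sets were called higher and 0.298% lower, 0.466% in all. Its only other probe set stayed between 2.5 and 32.3 in all lines, with 2.5 in clone 2.

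Psmb9 (chr17:34182030-34187330), which starts beside Tap1 and is read away from it, had 164.4 in clone 2, against 108.2 in clone 3, 167.0 in clone 9, 64.8 in clone 10, 76.8 in clone 11 and 104.8 in the original cells. Clone 9 was level with clone 2, as for Tap2, and the log2 difference was 0.63 (SE 0.426, 95% interval -0.33 to 1.59, limma adjusted p = 0.445). Psmb10 (chr8:105935728-105938392) had 552.2 in clone 2, against 370.2 in clone 3, 347.8 in clone 9, 338.9 in clone 10, 229.4 in clone 11 and 390.0 in the original cells. Clone 2 was clear of every expressing line, and the log2 difference was 0.71 (SE 0.274, 95% interval 0.09 to 1.33, limma adjusted p = 0.194). None of the 3 standard counterparts passed the test. Psmb5 had 3840.3 in clone 2 and 3295.7 to 3927.9 in the expressing lines (log2 difference 0.05, limma adjusted p = 0.881), and Psmb7 a difference of -0.19 (adjusted p = 0.42). Psmb6 had 5537.6 in clone 2, above the 4090.6 to 4870.8 of the expressing lines, with a difference of 0.26 (adjusted p = 0.313).

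Nlrc5 (chr8:94434335-94527272), which acts on the promoters of class I genes, had 78.8 in clone 2, against 40.9 in clone 3, 46.3 in clone 9, 4.0 in clone 10, 18.5 in clone 11 and 13.3 in the original cells. Clone 2 was highest, but all values lay below the filter, and the fit without a filter gave 1.27 (SE 0.596, limma adjusted p = 0.436).

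The interferon response genes in clone 2 ranged more widely and higher than the members. Of 37 past the filter, 7 had entered only through clone 2, and the other 30 had log2 differences from 0.16 to 5.00 with a median of 1.74. The median was 0.73 for the 8 members and 0.01 for all 10342 genes, and the difference between the lists was not tested. Of those 30 genes 15 rose in clone 2 and 0 fell, where 0.817% of all probe sets rose and 1.67% fell. The number that rose was 5 without the original cells, 9 without clone 10 and 11 to 18 without another line, and it was 6 with no filter, 6 without the trend and 7 with the stricter filter. Ifi27, an interferon-induced mitochondrial protein, had 3947.7 in clone 2, against 81.6 to 233.0 in the expressing lines (log2 difference 5.00, limma adjusted p = 0.00381). Rsad2, the antiviral enzyme viperin, had 5827.0 in clone 2, against 46.8 to 606.5 (4.94, limma adjusted p = 0.0374), a call lost in the robust fit (0.141), without the trend (0.0818), with no filter (0.0783) and without clone 10 (0.058) or the original cells (0.0739). Ifi27l2a, a relative of Ifi27, and Oas3, a sensor of double-stranded RNA, were among the 7 that entered through clone 2. Ifi27l2a had 752.3 in clone 2, against 6.7 to 24.3, and Oas3 had 595.6 in clone 2, against 9.3 to 39.8. The upper ends of the members' 95% intervals lay between 0.55 and 2.11.

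Most genes around the chromosome 17 members had lower values in clone 2. Within 1 Mb of the outermost of them, 84 other genes passed the filter, 78 had a negative difference, and the median was -0.34. Of these 2 fell and 0 rose by the test, where 1.67% of all probe sets fell. Rps18, a ribosomal protein gene, had 20763.2 in clone 2, against 28547.1 to 33366.9 in the expressing lines (log2 difference -0.57, limma adjusted p = 0.0322), a call lost without the original cells (0.08), with quantile normalization (0.0537) or median centring (0.0705), with no filter (0.142) and without the trend (0.138). The other was 1110038B12Rik (-0.89, adjusted p = 0.0327), lost without clone 3 (0.06), clone 11 (0.0606) or the original cells (0.0682), with no filter (0.0598) and without the trend (0.0836). Centred on the chromosome, as below, neither passed (adjusted p = 0.466 for Rps18 and 0.317 for 1110038B12Rik). Over the whole of chromosome 17, 465 of 507 genes were below the mean of the expressing lines in clone 2, with a median of -0.37. The median was -0.13 for 811 genes of chromosome 2 and -0.01 for 573 of chromosome 8.

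Set against the median of their own chromosome in each array, all 8 members had a larger difference between clone 2 and the expressing lines. The differences were then 1.09 for H2-K1 (limma adjusted p = 0.111), 1.20 for H2-D1 (0.0483), 1.15 for B2m (0.199), 1.43 for Tap1 (0.0891), 1.15 for Tap2 (0.417), 0.59 for Tapbp (0.23), 1.04 for Psmb9 (0.236) and 0.79 for Psmb10 (0.207). So 1 of 8, H2-D1, passed the test when centred in this way, where 0.484% of probe sets were called higher and 1.24% lower, 1.72% in all. The centring moves all chromosome 17 genes of an array by 1 amount, upwards in clone 2. On this scale all 8 members were highest in clone 2, Psmb9 and Tap2 included, where 26.6% of chromosome 17 genes and 24.5% of all genes were, against 4.14% and 29.0% before centring.

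**Figure D3:**
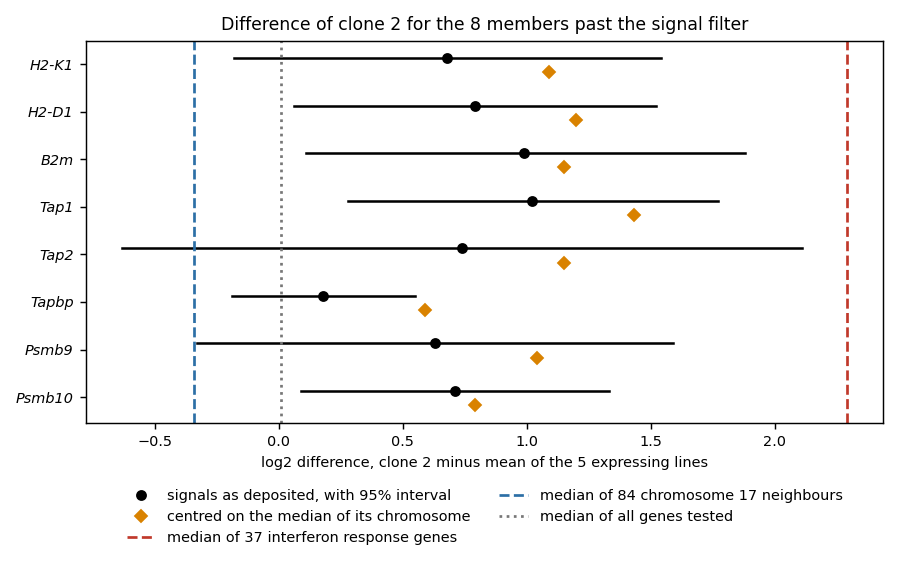
Log2 difference of clone 2 from the mean of the 5 expressing lines for the 8 members past the filter, with the 95% interval (black) and after each array was centred on the median of the gene's own chromosome (orange diamonds). Dashed and dotted lines are the medians of 37 interferon response genes (2.29, or 1.74 over the 30 that did not enter through clone 2 alone), of 84 chromosome 17 neighbours (-0.34) and of all genes tested (0.01). The members lie between the median of all genes and that of the interferon genes.

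The other steps of the pathway, like the representative probe sets of the members, held no gene past the test, which 2.49% of all probe sets passed. Of 14 standard 20S proteasome genes, 8 proteasome activator and assembly genes, 6 genes of loading and trimming in the endoplasmic reticulum and 7 cytosolic peptidases, 0 passed the test in either direction, and their median differences were 0.09, 0.20, -0.17 and -0.05. The chaperone Canx, which holds new heavy chains, had 11732.3 in clone 2, against 11066.2 to 12678.7 (log2 difference -0.00, limma adjusted p = 0.996). The chaperone Hspa5 had 8938.7 in clone 2, against 11205.5 to 13487.0 (-0.47, adjusted p = 0.0942). Psme1, a subunit of the interferon-inducible proteasome activator, had a difference of 0.22 (adjusted p = 0.444), and Pomp, which assembles proteasomes, 0.42 (adjusted p = 0.171). Psme4, also named after its value was seen, had the highest difference of the activator and assembly genes (0.54, limma adjusted p = 0.145). Psma6 had 0.26 (adjusted p = 0.286), Psmb4 -0.11 (0.661), Npepps 0.28 (0.389) and Blmh -0.33 (0.296).

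Among 20 regulators of class I genes past the filter 1 rose and 0 fell, where 0.817% and 1.67% of all probe sets did. It was Ifngr2, the signalling chain of the interferon gamma receptor, with 1207.8 in clone 2, against 389.7 to 634.8 in the expressing lines (log2 difference 1.34, SE 0.263, limma adjusted p = 0.0389). The call was lost without clone 3 (0.06), clone 11 (0.0678) or the original cells (0.0867), with no filter (0.0771) and without the trend (0.0757). Irf1, a direct activator of class I genes, had 1127.8 in clone 2, against 643.5 to 909.8 (0.58, adjusted p = 0.166), and Irf9, the DNA-binding part of the type I interferon factor and named after its value was seen, had a difference of 1.46 (adjusted p = 0.0586). Of 4 other class I and class I-like genes past the filter 1 fell, where 1.67% of all probe sets did. It was Mr1, which presents vitamin B metabolites, with 28.8 in clone 2, against 123.0 to 262.6 (log2 difference -1.93, limma adjusted p = 0.0454). Its call was lost without clone 3 (0.0611), clone 10 (0.0557), clone 11 (0.0837) or the original cells (0.0886), and in 6 of the other settings. Of 11 class II presentation genes 1 passed the filter, H2-DMa, with 88.7 in clone 2 and 75.3 to 137.7 in the expressing lines (log2 difference -0.00, adjusted p = 0.996).

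**Figure D4:**
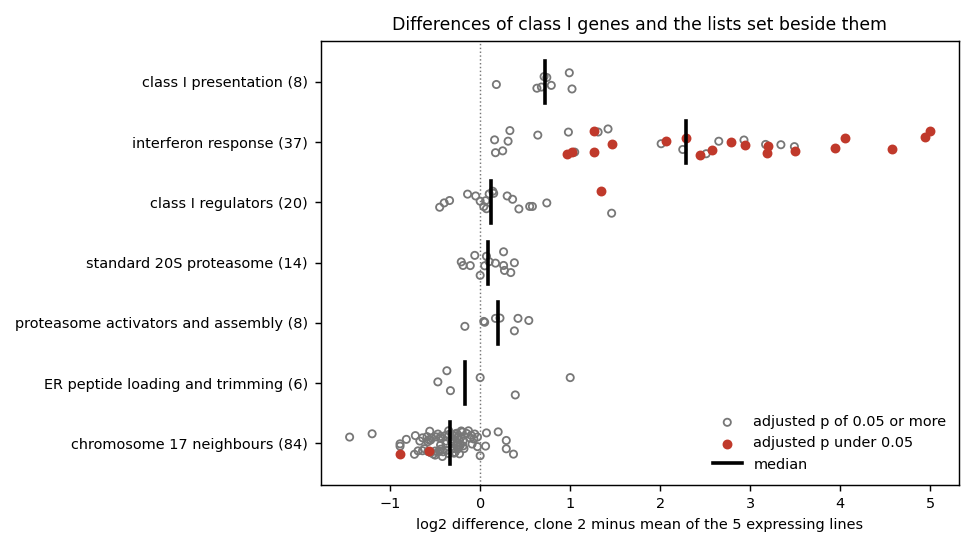
Log2 difference of clone 2 from the mean of the 5 expressing lines for each gene past the filter in 7 lists, with numbers of genes in brackets. Filled red points passed the test, open points did not, and black bars are medians. The class I genes lie at 0.18 to 1.02, the interferon genes spread up to 5.00 and most chromosome 17 neighbours lie below 0.

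Among the expressing lines the members did not share 1 order. Over the same 30 interferon genes the median was highest in clone 3, at 0.31 above the mean of the expressing lines, then in clone 10 (0.08), the original cells (-0.01), clone 9 (-0.19) and clone 11 (-0.40). The representative probe sets of B2m, H2-K1 and H2-D1 were lowest in clone 3, at -0.50, -0.78 and -0.49 on the same log2 scale. Other probe sets of these genes past the filter did not all keep that order. An H2-K1 one (1451931_x_at, 901.2) and the called H2-D1 one (385.1) were also lowest in clone 3. The H2-D1 ones 1451784_x_at and 1426324_at were lowest in clone 10 (2182.0 and 135.1), with clone 3 next (2391.2 and 138.1). The second B2m probe set was lowest in clone 10 (1825.6), the called H2-K1 one in clone 9 (1105.0), and an H2-D1 one (1450170_x_at) had 1185.2 in clone 3, close to its highest expressing line (1190.7). Clone 11, where the interferon list was lowest, had H2-K1 at 0.29 and H2-D1 at 0.44. Tap1, Tap2, Tapbp, Psmb8 and Psmb10 were lowest in clone 11, and Tapbp and Psmb8 were highest in clone 3 among the expressing lines. The second Tapbp probe set was instead lowest in the original cells (568.1) and highest in clone 9 (957.5). For Psmb8 the order rests on signals of 7.0 to 12.2, below the filter. Its other probe set, also below the filter, was lowest of the expressing lines in clone 3 (3.6) and highest in the original cells (32.3). B2m, H2-K1, Tap2, Psmb9 and Nlrc5 were highest in clone 9. With 5 lines and 1 array each these orders are a description.

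**Figure D5:**
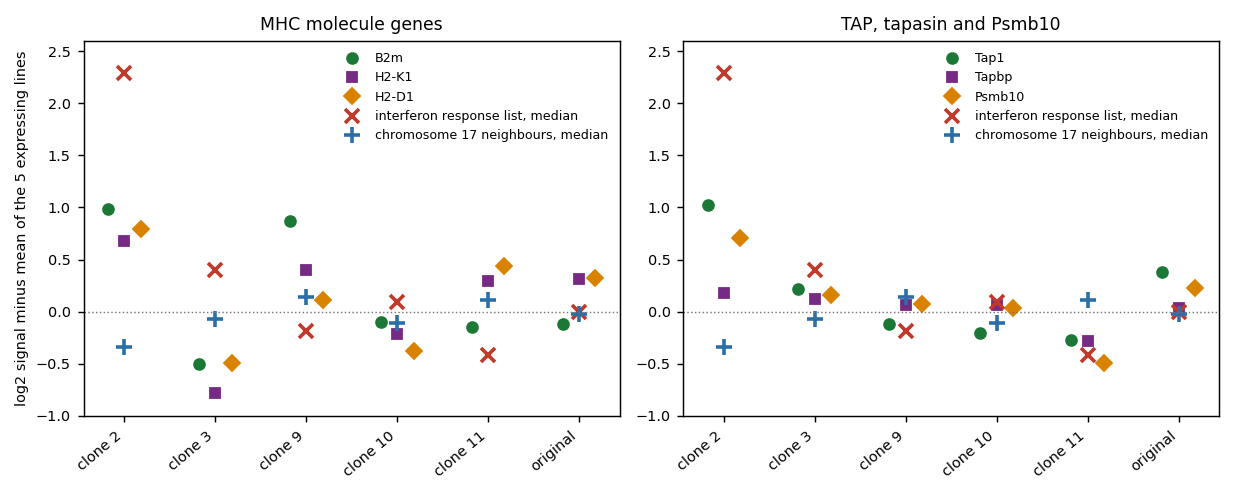
Log2 signal minus the mean of the 5 expressing lines, by line, for B2m, H2-K1 and H2-D1 (left) and Tap1, Tapbp and Psmb10 (right), with the medians of the interferon response list (red crosses) and of the chromosome 17 neighbours (blue plus signs) in both panels. In clone 2 the members lie between the 2 medians. In clone 3 the probe sets shown for the heavy chains and B2m lie below 0 while the interferon median over 37 genes is at 0.40.

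Pairs of members agreed to very different degrees over the 6 lines, given here as Pearson correlations of log2 values for description. H2-K1 and H2-D1, whose probe sets may bind each other's transcripts, had 0.913, Tap2 and Tapbp 0.928, and Tapbp and Psmb10 0.898. Tap1 and Psmb9, which share a start region, had 0.599, and H2-D1 and Tapbp -0.170.

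The series' design asks which transcripts follow Aqp2 among the lines. Of the 8 members 0 passed the test of a slope on log2 Aqp2 (limma), where 1.02% of all probe sets had a positive and 0.742% a negative slope past the test, 1.76% in all. At an unadjusted p under 0.05 there were 2, Tap1 and Psmb10, where 10.1% of all genes had a negative slope at that level. All 8 slopes were negative, from -0.04 per log2 unit of Aqp2 for H2-K1 to -0.23 for Tap2, and Psmb10 had the smallest adjusted p (slope -0.16, SE 0.0549, limma adjusted p = 0.143). The called H2-K1 probe set (1427746_x_at), singled out after its values were seen, had a slope of -0.30 (SE 0.055) that passed the test (limma adjusted p = 0.0369). No other further probe set of a member past the filter did. These slopes include clone 2, which is lowest in Aqp2, so they are not separate from the comparison above. Over the 5 expressing lines alone the slope turned positive for B2m (0.19), H2-K1 (0.35), H2-D1 (0.35) and Psmb9 (0.16) and stayed negative for the other 4, and again 0 of 8 passed, with 0.0133% of all probe sets called. In that fit adjusted p of these 8 lay between 0.208 for H2-D1 and 0.965 for Tap1. The sign depended on the probe set for the heavy chains. The called H2-K1 one (1427746_x_at) had -0.15 and an H2-D1 one (1450170_x_at) -0.11. The other further H2-K1 one had 0.48, the second B2m one 0.27 and the remaining H2-D1 ones 0.06 to 0.39.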

How the data were processed

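The deposited values are linear intensity signals of the MAS5 method. Expression Console 1.1 is the software named, per the submitters' processing notes, and the sources used here give no further step. After trimming 2% of probe sets at each end, the mean of every array was 500. Mismatch probes are subtracted in MAS5, which makes low values noisy, and no detection calls were used. The number of arrays limits the precision.

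Of 45101 probe sets, 64 controls were left out. Probe sets were named from the platform annotation, with symbols brought up to date by gene identifier (GRCm38.p6), and 34945 of the 45037 probe sets had 1 gene, 932 several and 9160 none named. From the deposited intensities, log2(signal + 18.85) was computed, with the 25th percentile of the signals as offset, so that differences between low signals come out too small. The 22518 probe sets with a mean above 85.46, the median, were fitted with limma 3.58.1 in R 4.3.3 (eBayes with a mean-variance trend, two-sided, Benjamini-Hochberg, adjusted p under 0.05). The fits of clone 2 and of the slope on Aqp2 were run on simulated data with independent noise in each array. Those data held no shift shared by the genes of a line or chromosome, so they cannot show how the fits behave under such shifts. For the slope only the bias of the estimate was computed. P-values measure only the spread between single arrays of different lines, and clone 2 was assumed to vary like the expressing lines.

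The members, the lists and the rules were chosen with earlier results of these data known. Named were all members, Aqp2, Irf1 and, per list, the up to 4 genes past the test with the largest difference or, where there was none, the 2 of highest mean signal. For 4 members the 3 genes with the most similar pattern were added. Psmb5, Psmb6 and Psmb7 were named as counterparts of the inducible subunits, and Ptprc as a blood cell marker. Alternatives were other offsets, filters, normalizations and fits, each expressing line left out, other probe sets of a member, and centring on the median of a gene's chromosome.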

Additional observations from a re-analysis of the deposited data

Results flagged for a closer look

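In 48 sets of values from the 5 expressing lines, the highest or lowest line was checked for a gap to its nearest neighbour above 0.71 of the range, which chance gives in about 1 of 20 sets. There were 6 such values. Among the members, B2m stood apart in clone 9, at 6248.1, and Tapbp in clone 11, at 3477.6, on the low side. Clone 11 also stood apart with high Oas3 (39.8) and Ifi27 (233.0). The original cells stood apart with high H2-DMa (137.7), and since H2-DMa was the sole class II gene past the filter, the median of that list (0.54) repeats it. No explanation was tested for any of them.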

How the results depend on the processing

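Each of the 8 members past the filter kept a positive difference in clone 2 under every setting run on its representative probe set. The same held for its other probe sets past the filter in the fit reported, while the second Tapbp probe set turned to -0.03 without the original cells. None of the representative probe sets passed the test except those of B2m without clone 9 and H2-D1 centred by chromosome, so the number of members past the test was 1 in those settings and 0 to 1 when 1 expressing line was left out. Leaving out 1 expressing line moved the 560 probe sets of the clone 2 comparison to between 154 (without the original cells) and 943 (without clone 9), with 249 without clone 11, 320 without clone 3 and 344 without clone 10. The count was 210 with no filter and 219 without the mean-variance trend. Of the 560, 184 were higher and 376 lower, and with median centring 254 and 232. The slope on Aqp2 had 397, with 51 under no filter, 1 without the trend, 3 without clone 2 and between 0 (without clone 11) and 648 (without clone 10) when 1 expressing line was left out. Its 230 positive and 167 negative slopes became 158 and 185 with median centring.

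Reversed differences, none past the test, were those of Canx with median centring (0.09) and, over the lines left out in turn, between -0.02 and 0.03 (above 0 without clone 3, and without clone 10 at 0.02), of Psmb4 centred by chromosome (0.08), and of H2-DMa with an offset of 0 (0.00), quantile normalization (0.09), median centring (0.09), without the original cells (0.13, with -0.05 as the lowest over the lines left out) and centred by chromosome (0.41). The slope of H2-DMa reversed without the original cells (-0.01, with 0.05 as the highest over the lines left out). Without clone 2, the slopes of the representative probe sets reversed for B2m (0.19), H2-K1 (0.35), H2-D1 (0.35) and Psmb9 (0.16). They also did for Oas3 (0.30), Ifi27 (0.29), Gata3 (-0.01), Fxyd4 (-0.16), 1110038B12Rik (-0.06) and Pdia3 (-0.03). The cause was not tested. No paired analysis was possible because clone 2 is a single line and replicate numbers only name the lines. Signals of Psmb8 and Nlrc5 were too low for the filter, so only the fit without it gives them a value.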

Other observations

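The height of B2m in clone 9 was not seen in the median of its neighbours on chromosome 2 past the filter. Of genes starting within 1 Mb of B2m, 15 passed the filter, and their median in clone 9 was 0.08 above the mean of the expressing lines, against 0.87 for B2m. In clone 2 that median was -0.22, with 11 of 15 genes below the mean of the expressing lines, against 0.99 for B2m. Serf2 had 5719.9 in clone 2 and 8219.8 in clone 9, and Pdia3, which folds class I heavy chains, had 5229.9 in clone 2 and 8261.4 in clone 9. Pdia3 was highest in clone 9, with 4984.0 to 6911.4 in the other expressing lines. AA467197, a neighbour below the filter, was named after its values were seen. It had 169.2 in clone 2, 102.3 in clone 9 and 3.6 to 41.4 in the other lines. A local cause was not tested. The set of neighbours was chosen after the values of B2m were seen.

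The genes whose log2 values ran most like those of B2m over the 6 lines were Lcorl (Pearson correlation 0.999), Fam167a (0.987) and Erdr1 (0.986). All 3 were high in clones 2 and 9 together, Fam167a with 700.6 in clone 2, 577.8 in clone 9 and 80.9 to 178.3 in the other lines. For H2-K1 they were Asb3 (0.991), Zfp239 (0.983) and Ptpn21 (0.982), and for H2-D1 Dlx4 (0.986), Macroh2a1 (0.986) and Ppp1r3f (0.984). For Tapbp they were Snrnp35 (0.993), Mast4 (0.990) and Cc2d1b (0.988), all lowest in clone 11. These are the highest values among 10342 genes over 6 lines, and only describe these arrays. Among the genes closest to the other members, Nmi, an interferon-induced gene named after its value was seen, had 0.995 with Tap1, with 977.0 in clone 2 and 455.9 to 645.8 in the expressing lines.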
